A study of Mus musculus with 3 samples.

Results

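Heat shock proteins and DNAJ cochaperones were examined as 74 genes, 29 with Hsp names and 45 with Dnaj names, out of 22028 protein-coding genes and 55536 gene identifiers in the tables. A gene was a member when GENCODE M21 classed it as protein coding and its symbol began with Hspa, Hspb, Hspd, Hspe, Hsph or Hsp90 followed by a number, or with Dnaja, Dnajb or Dnajc followed by a number. The rule uses names and gene types, not measured values. The name rule also takes in 3 genes that are not chaperones of these families: Hspbp1 and Hspbap1, named for binding a heat shock protein, and Hspb11, an intraflagellar transport subunit.

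The data came from macrophages (primary cells) grown from C57BL/6J mouse bone marrow. The cells received 100 ng/ml lipid A, the part of lipopolysaccharide that Toll-like receptor 4 recognises, for 120 min. Total RNA of the cytosolic fraction was depleted of ribosomal RNA and sequenced from 1 µg, with a labelled size range of 250 to 400 bp. The 3 libraries, labelled biological replicates 1, 2 and 3, form 1 group, and their labels carry the same donor identifier, with age and sex not collected. No untreated or whole-cell group is analysed here, so the values are levels under lipid A and no response to it can be measured.

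HSP70 proteins bind exposed hydrophobic stretches of unfolded proteins and release them in a cycle driven by ATP. DNAJ proteins, also called HSP40s, carry a J domain that brings clients to an HSP70 and starts ATP hydrolysis, and nucleotide exchange factors reset the cycle. HSP90 acts later on kinases, receptors and other clients, small heat shock proteins hold unfolded proteins without ATP, and the chaperonin HSP60 with its lid HSP10 folds proteins inside mitochondria. Heat shock factor 1 raises many of these genes under proteotoxic stress, and the unfolded protein response raises those of the endoplasmic reticulum (ER).

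Expected counts summed to 31152786, 114031592 and 59693298 in replicates 1, 2 and 3, so replicate 1 is the shallowest library and replicate 2 the deepest. Levels are given in TPM, a length-scaled share of all features that sums to the same total in every library. Rows other than protein-coding genes took most of it, and nuclear protein-coding genes held 23.5%, 21.1% and 22.0%. The TPM of a gene depends on that total and serves here for ordering genes within these libraries. All 8 macrophage markers listed were detected, with means from 14.5 to 4039 TPM, and 0 of 18 markers of T cells, B cells, erythroid cells, stromal cells, dendritic cells and neutrophils were, the highest mean being 0.380 TPM. SDs and tests measure only the spread among these 3 libraries, which may be technical.

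Promoter windows are shown for the members whose windows held a stress element, since several of these genes are the highest of their families or shared a library pattern described further on. RefSeq gives a window of 250 bases before and 50 after a start for 60 of the 74 members. Both strands were searched for the heat shock element, as GAANNTTCNNGAA, and for the ER stress response element, as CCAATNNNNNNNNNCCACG. The bases before the start are printed 5′ to 3′ on the gene's strand, build GRCm38.p6, with the matched bases in capitals.
Hspa5, chr2:34771840-34772089, plus strand: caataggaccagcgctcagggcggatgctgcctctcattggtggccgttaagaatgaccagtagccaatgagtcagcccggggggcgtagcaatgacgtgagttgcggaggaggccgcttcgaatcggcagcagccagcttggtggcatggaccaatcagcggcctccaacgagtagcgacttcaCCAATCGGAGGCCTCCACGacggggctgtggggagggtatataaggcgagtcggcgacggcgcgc
Hsp90b1, chr10:86705445-86705694, minus strand: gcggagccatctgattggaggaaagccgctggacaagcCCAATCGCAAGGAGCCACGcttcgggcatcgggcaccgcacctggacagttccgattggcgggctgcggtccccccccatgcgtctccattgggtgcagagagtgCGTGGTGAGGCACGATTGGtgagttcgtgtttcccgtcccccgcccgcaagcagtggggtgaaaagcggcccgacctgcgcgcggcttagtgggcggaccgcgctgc
Dnajc3, chr14:118937682-118937931, plus strand: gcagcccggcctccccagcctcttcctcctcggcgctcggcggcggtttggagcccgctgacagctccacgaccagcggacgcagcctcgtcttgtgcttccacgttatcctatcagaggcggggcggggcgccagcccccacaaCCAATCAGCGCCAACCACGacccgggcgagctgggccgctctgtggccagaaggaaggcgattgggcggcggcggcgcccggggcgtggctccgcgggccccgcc
Hspe1, chr1:55087898-55088147, plus strand: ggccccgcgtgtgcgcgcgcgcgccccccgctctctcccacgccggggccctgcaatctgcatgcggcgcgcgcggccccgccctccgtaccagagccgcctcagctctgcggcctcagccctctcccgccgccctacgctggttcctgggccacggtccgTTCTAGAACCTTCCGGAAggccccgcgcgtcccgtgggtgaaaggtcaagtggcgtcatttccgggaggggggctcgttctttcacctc
Dnajb6, chr5:29735648-29735897, plus strand: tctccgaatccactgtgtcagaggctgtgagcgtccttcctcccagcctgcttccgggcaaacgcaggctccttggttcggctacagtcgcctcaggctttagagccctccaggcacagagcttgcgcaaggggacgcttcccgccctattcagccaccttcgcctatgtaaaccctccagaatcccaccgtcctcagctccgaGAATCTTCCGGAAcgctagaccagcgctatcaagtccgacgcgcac

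The ER element was in the windows of 3 members, all on the ER list: at −65 to −47 from the start in Hspa5, at −105 to −87 in Dnajc3, and at −212 to −194 and, on the opposite strand, −107 to −89 in Hsp90b1. It was in 3 of 77 member windows and in 0.119% of the 32851 mouse promoter windows. The heat shock element was in the windows of 4 members, as 6 of 77 member windows, and in 0.603% of all windows. Other members had no match to its exact letters or no window. In Dnajb6 the element ran from −46 to −34, and in Hspe1 a pair of overlapping matches on opposite strands ran from −89 to −77 and from −84 to −72. Hspd1 lies head to head with Hspe1 and shares these bases, and the match of Hsph1 lay after the start and is not printed. GENCODE M21 places the first base of Hspa5, Hsp90b1, Hspe1 and Dnajb6 inside the printed stretch. A match is a description of letters, not of a bound site.

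Of the 74 members, 51 were detected, at 1 TPM or more in every library, which is 68.9%, beside 37.6% of the 22015 nuclear protein-coding genes. A mean of at least 10 TPM was reached by 20 members, beside 14.4% of nuclear protein-coding genes, and one of at least 100 TPM by 4 members. The median level of all 74 members was 3.36 TPM, and that of nuclear protein-coding genes 0.113 TPM. Among detected genes the medians were close, at 6.91 TPM for members and 6.84 TPM for nuclear protein-coding genes. All members together held 0.627% ± 0.0138 of nuclear protein-coding TPM (SD, n = 3). In bulk RNA fewer cells with a transcript and less of it per cell cannot be told apart.

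Member mRNA was concentrated in few genes. Hspa8, Hspa5, Hsp90ab1, Hsp90b1 and Hsp90aa1 held 63.3% ± 0.439 of summed member TPM (SD, n = 3). By family, HSP70 with HSP110 held 47.9% ± 0.926, HSP90 21% ± 1.5, DNAJC 11.4% ± 0.0796, DNAJB 9.09% ± 0.398 and DNAJA 5.78% ± 0.299 (SD, n = 3 each). The chaperonin pair held 4.06% ± 0.122 and Hspb-named genes 0.240% ± 0.0244. Most of the Hspb-named sum, 2.43 of 3.35 TPM, came from the transport subunit Hspb11. Hsp-named genes held 73.7% and Dnaj-named genes 26.3%, although the median Hsp-named gene was at 3.10 TPM and the median Dnaj-named gene at 3.64 TPM. On log2(TPM + 1) the Hsp-named median less the Dnaj-named median was −0.24 ± 0.07 (SD, n = 3), and the sign turned to 0.34 with means in place of medians and to 1.72 with only members at a mean of 1 TPM or more. The HSP genes thus included both the highest members and many below detection, 12 of 29, while 34 of 45 Dnaj-named genes were detected.

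**Figure D1:**
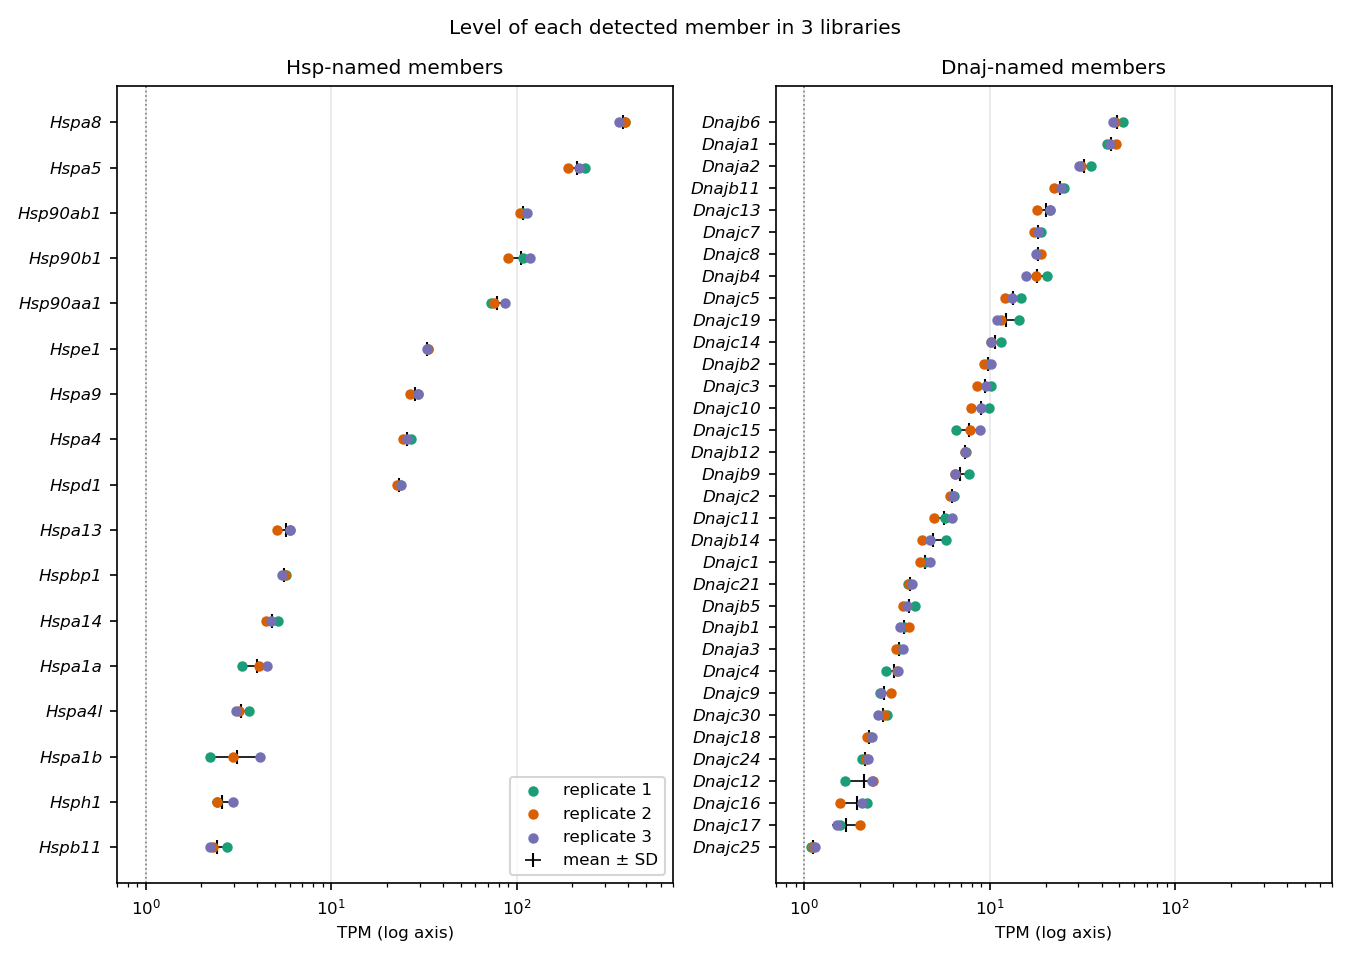
TPM (log axis) of each detected member in the 3 libraries, with the mean and SD as a black mark and line, for Hsp-named genes (left) and Dnaj-named genes (right). The dotted line marks 1 TPM; Hspa8 at 375 TPM leads the Hsp-named genes and Dnajb6 at 48.4 TPM the Dnaj-named genes, and the points of most genes nearly coincide while those of Hspa1b are spread.

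Hspa8, the constitutive cytosolic HSP70 also known as HSC70, was the highest member, with 383, 384 and 359 TPM in replicates 1, 2 and 3 (mean 375 ± 14.3, SD, n = 3). It ranked 64 among detected nuclear protein-coding genes. Hspa5, the ER HSP70 known as BiP, had 234, 189 and 217 TPM (mean 213 ± 22.7), and every library of Hspa8 lay above every library of Hspa5. The Hspa8 to Hspa5 ratio was 1.77 ± 0.222 (SD, n = 3), highest in replicate 2, where Hspa5 was lowest. Hspa9, the mitochondrial HSP70 mortalin, had 29.3, 26.5 and 29.4 TPM (mean 28.4 ± 1.63). Hspa4, an HSP110-type exchange factor of the cytosol, was close to it at 25.7 ± 1.40 TPM, with ranges that overlapped those of Hspa9.

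The stress-inducible cytosolic HSP70 genes were low. Hspa1a had 3.32, 4.09 and 4.49 TPM (mean 3.97 ± 0.595, SD, n = 3) and Hspa1b had 2.23, 2.94 and 4.12 TPM (mean 3.10 ± 0.955), both lowest in replicate 1 and highest in replicate 3. Together they came to 1.89% ± 0.479 of the Hspa8 level. These single-exon genes on chromosome 17 are near copies whose coding sequences were identical at 99.4% of aligned bases (1915 matches), against 73.9% for Hspa1a and Hspa8, so how reads were divided between the copies is uncertain and their sum is firmer. The sum was 5.55, 7.03 and 8.61 TPM. The deposited credibility interval of Hspa1a was 2.95 to 3.58 TPM in replicate 1, and that of Hspa1b 1.91 to 2.48 TPM. In replicate 3 the intervals, 4.17 to 4.71 TPM for Hspa1a and 3.82 to 4.37 TPM for Hspa1b, overlapped.

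The remaining HSP70 and HSP110 genes were also low. Hspa4l, an HSP110-type gene on the heat-inducible list, had 3.59, 3.18 and 3.08 TPM, and Hsph1, known as HSP105, had 2.41, 2.43 and 2.94 TPM. Both stayed within a narrow range, with Hspa4l highest in replicate 1 and Hsph1 in replicate 3. Named after their values were seen, the ER gene Hspa13 averaged 5.71 ± 0.526 TPM and Hspa14, which works at the ribosome, 4.79 ± 0.388 TPM (SD, n = 3 each). The other members of the family, Hspa2 and Hspa1l, known from testis, and Hspa12a and Hspa12b, distant relatives, were not detected. Hspa2 came nearest to the 1 TPM threshold, at 0.920, 0.890 and 0.850 TPM.

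All 3 HSP90 genes were detected. Hsp90ab1, the constitutive cytosolic HSP90 beta, had 108, 104 and 114 TPM (mean 109 ± 5.01, SD, n = 3). Hsp90b1, the ER HSP90 known as GRP94, had 109, 90.3 and 118 TPM (mean 106 ± 14.3), so the order of these neighbours was not resolved: Hsp90ab1 was the higher in only 1 of 3 libraries. Hsp90aa1, the stress-inducible HSP90 alpha, had 72.9, 75.5 and 86.3 TPM (mean 78.3 ± 7.11), below both in each library. The Hsp90ab1 to Hsp90aa1 ratio of gene TPM was 1.48, 1.38 and 1.32, with a mean of 1.39 ± 0.0781. Counting annotated coding transcripts alone, the gap was wider, at 107 ± 4.70 TPM for Hsp90ab1 and 58.1 ± 4.18 TPM for Hsp90aa1. The coding sequences of Hsp90ab1 and Hsp90aa1 were identical at 75.4% of aligned bases, and Hsp90aa1 ranked 481 among detected nuclear protein-coding genes.

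The mitochondrial chaperonin genes differed little among libraries. Hspe1, which encodes HSP10, had 33.2, 33.2 and 32.7 TPM, and Hspd1, which encodes HSP60, had 23.4, 22.8 and 23.8 TPM. Hspe1 lay above Hspd1 in each library, at a ratio of 1.42 ± 0.0429 (SD, n = 3). The genes overlap by 112 exonic bases on opposite strands, and the strand setting of the counting is not given in the sources used here, so reads from the overlap may be shared.

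Small heat shock protein genes were mostly below detection. Of 8 Hspb-named genes, only Hspb11 was detected, with 2.74, 2.31 and 2.23 TPM, and it is the transport subunit mentioned above. Hspb6 had 0.530, 0.450 and 0.460 TPM and Hspb9 had 0.380, 0.200 and 0.320 TPM. Hspb1, the heat-inducible HSP27, had 0.190, 0.0800 and 0.130 TPM, from 7, 12.1 and 10 expected counts. Hspb7 did not exceed 0.0100 TPM. Hspb2, Hspb3 and Hspb8 had no counts in any library, where 3 counts would be 0.0963, 0.0263 and 0.0503 CPM (reads scaled by library total) in replicates 1, 2 and 3, and such limits cover counting error only.

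Among DNAJA genes, which resemble the bacterial DnaJ in full, Dnaja1 had 42.7, 47.6 and 44.4 TPM and was highest in replicate 2. Dnaja2 had 35.1, 31.1 and 30.2 TPM and was highest in replicate 1, with a range clear below that of Dnaja1. Dnaja3, the mitochondrial member, had 3.24, 3.10 and 3.38 TPM, and Dnaja4 was at 0.050 TPM in each library. Dnaja1 overlaps Smu1 on the opposite strand by 608 exonic bases, and Smu1 was at 11.4 TPM.

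DNAJB genes lack the zinc-binding region of DNAJA. Dnajb6, whose product keeps aggregation-prone proteins soluble, led them with 52.1, 47.0 and 46.0 TPM (mean 48.4 ± 3.26, SD, n = 3) and overlapped the range of Dnaja1. Dnajb11, a cochaperone of BiP, had 25.2, 22.2 and 24.2 TPM, and Dnajb4 had 20.3, 17.8 and 15.6 TPM. The range of Dnajb4 lay below that of Dnajb11. Dnajb1, the heat-inducible HSP40 that works with cytosolic HSP70, had 3.43, 3.64 and 3.26 TPM, a mean of 3.44 ± 0.190. DNAJA genes summed to 80.3 ± 2.07 TPM and DNAJB genes to 126 ± 8.25 TPM, a DNAJA to DNAJB ratio of 0.637 ± 0.0379. Of 13 DNAJB genes 9 were detected, and Dnajb3, Dnajb7, Dnajb8 and Dnajb13 were not. Dnajb13, at 0.210, 0.350 and 0.180 TPM, overlaps 305 exonic bases of Ucp2, which was at 167 TPM on the opposite strand.

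DNAJC genes share the J domain alone and are the most varied class. Dnajc13, known as RME-8 and needed for endosomal sorting, led them with 21.2, 17.9 and 21.1 TPM. Dnajc8, found with the splicing machinery, had 17.9, 18.8 and 17.8 TPM, and Dnajc7, a TPR-domain cochaperone that binds HSP70 and HSP90, had 18.8, 17.4 and 18.1 TPM. Dnajc8 and Dnajc7 could not be ordered, since their ranges overlapped. Of 28 DNAJC genes 22 were detected, down to Dnajc25 at 1.11 ± 0.0300 TPM (SD, n = 3). Not detected were Dnajc5b, Dnajc5g, Dnajc6, Dnajc22, Dnajc27 and Dnajc28. Dnajc6 encodes the neuronal auxilin, and Gak, its broadly expressed relative outside the name rule, averaged 20.1 ± 1.26 TPM.

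Ordered by mean, the 51 detected members form 50 neighbour pairs. In 12 pairs the ranges of the libraries did not overlap, and in 21 the order was the same in every library. The clear steps at the top were Hspa8 over Hspa5, Hspa5 over Hsp90ab1, Hsp90b1 over Hsp90aa1, and Hsp90aa1 over Dnajb6. From Hspa9 to Hspd1 no neighbours had separate ranges.

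Grouped by where the products work, every listed member of the ER (8 of 8), of mitochondria (8 of 8) and of the nucleus or ribosome (6 of 6) was detected, beside 37.6% of nuclear protein-coding genes. Of 4 membrane traffic members 2 were detected, and of the 8 testis and 5 muscle members 0 were. The lists were drawn with earlier results of these data known, so these counts are a description. The testis list summed to 1.63 ± 0.0987 TPM and the muscle list to 0.487 ± 0.0473 TPM (SD, n = 3 each). On the heat-inducible list 11 of 12 were detected, all but Hspb1. That list summed to 678, 683 and 678 TPM, most of it from Hspa8 and the cytosolic HSP90 genes, which are abundant without heat.

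The balance of HSP70 to DNAJ mRNA, summed as gene TPM, differed among the lists drawn by compartment. On the ER list, Hspa5 and Hspa13 together had 240, 194 and 223 TPM. Its 5 DNAJ genes, Dnajb11, Dnajc3, Dnajc10, Dnajb9 and Dnajc1, had 57.3, 49.3 and 53.9 TPM, a ratio of 4.09 ± 0.130 (SD, n = 3). In mitochondria, Hspa9 had less on gene TPM than the 5 listed DNAJ genes together, 32.6, 30.1 and 31.8 TPM, a ratio of 0.901 ± 0.0224. That order did not hold for coding transcripts. They averaged 28.3 TPM in Hspa9, against 8.85 in Dnajc19, 4.95 in Dnajc11, 3.20 in Dnaja3, 2.65 in Dnajc30 and 0.900 TPM in Dnajc15. For the remaining 11 HSP70 and HSP110 genes over the remaining 35 DNAJ genes the ratio was 1.5 ± 0.0433. Dnajb12, Dnajb14, Dnajc14, Dnajc16, Dnajc18 and Dnajc25 count among these 35, with means of 7.37, 4.96, 10.6, 1.92, 2.24 and 1.11 TPM. Placed on the ER list, each would lower the ER ratio and raise that of the remaining genes. The ER list may be incomplete, so the ratios hold for the lists as drawn. On gene TPM the ranges of the 3 ratios did not overlap. These are sums of gene TPM, noncoding transcripts included, over genes chosen by name and say nothing of protein amounts.

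**Figure D2:**
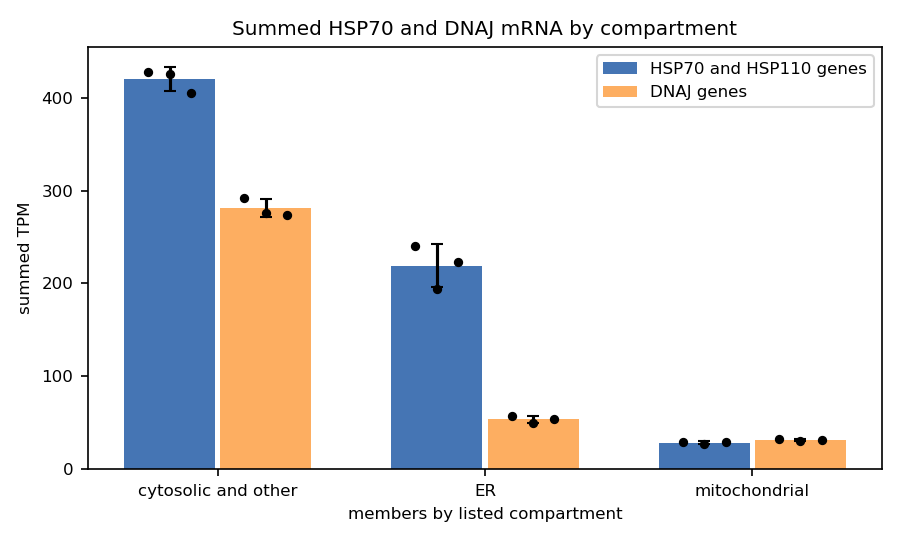
Summed TPM of HSP70 and HSP110 genes (blue) and of DNAJ genes (orange) among members outside the ER and mitochondrial lists, on the ER list and on the mitochondrial list. Bars are means, whiskers SDs and points the 3 libraries. On gene TPM, HSP70 genes exceed DNAJ genes most on the ER list, where the ratio was 4.09. They fall slightly below DNAJ genes on the mitochondrial list, where it was 0.901, an order that did not hold for coding transcripts.

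Many members were annotated with transcripts that do not encode the protein, such as retained-intron, nonsense-mediated decay and processed transcripts. Such transcripts held at least 25% of a gene's TPM for 6 of the 51 detected members, beside 14.5% of detected nuclear protein-coding genes, and under 5% for 33 members. Dnajc15, which encodes the mitochondrial inner membrane protein MCJ, was the extreme case, with 85.1%, 89.9% and 89.5%. Its 6193-nt coding transcript held 14.9%, 10.1% and 10.5%, so its 7.74 TPM as a gene (6.55, 7.85 and 8.82 TPM) overstates the level of annotated coding mRNA, which averaged 0.900 ± 0.0985 TPM. The second deposited quantification, in the layout of kallisto, put the share of these transcripts in Dnajc15 at 92.1%.

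High members were affected too. In Dnajc7 the noncoding share was 47.6% ± 2.07, in Dnajc5, a secretory vesicle cochaperone, 34.4% ± 3.11, and in Hspa4 33.1% ± 3.22 (SD, n = 3 each). In Hsp90aa1 it was 25.7% ± 1.35, nearly all in a retained-intron transcript of 325 nt, so its coding transcripts came to 58.1 ± 4.18 TPM. In Hspa5 it was 17.3% ± 0.968, nearly all in a 477-nt transcript of the decay class. TPM divides by length, and by expected counts the shares were smaller: 1.33% in Hsp90aa1, 2.05% in Hspa5, 5.25% in Hspa4, 19.9% in Dnajc7, 24.2% in Dnajc5 and 30.0% in Dnajc15. Dnajc19, a mitochondrial import factor, had 48.1%, 28.0% and 0.460%, a share that the libraries did not agree on. Between quantifications 4 members were at or above 25% in both, out of 6 in the first and 7 in the second, so the shares of single transcripts are less firm than the gene totals.

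**Figure D3:**
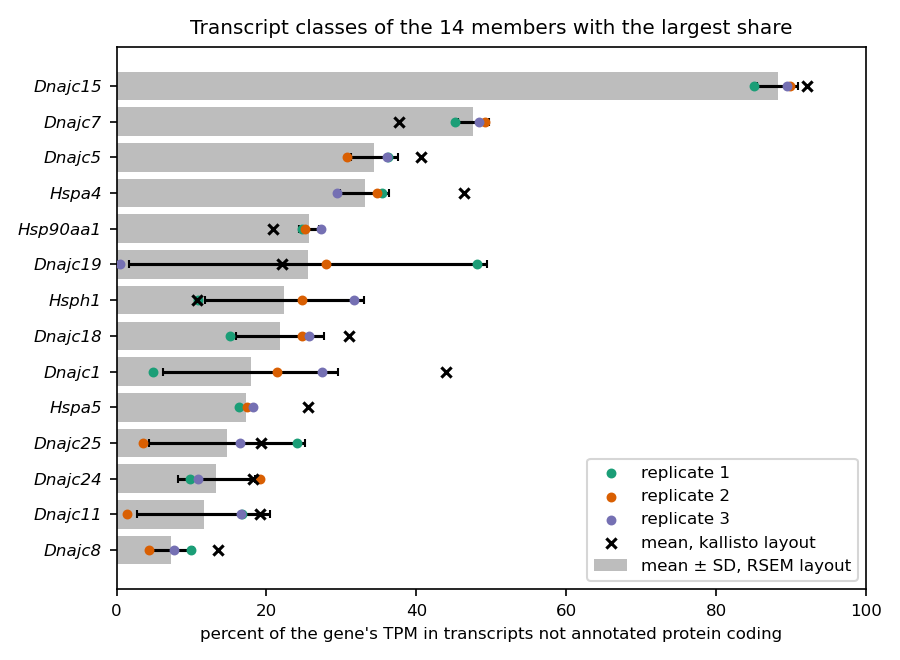
Percent of a gene's TPM in transcripts not annotated as protein coding, for the 14 members with the largest mean share; grey bars with whiskers are the mean and SD of the RSEM-layout tables, coloured points the 3 libraries and crosses the mean of the kallisto-layout tables. Dnajc15 stands highest at 88.2%, and Dnajc19 spans 0.460% to 48.1% among libraries.

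Coding transcripts of one gene were also estimated separately. The 1605-nt transcript of Dnajb6 held 58.6%, 54.5% and 60.9% of its TPM while the 2918-nt transcript held 34.9%, 37.8% and 30.1%. The shorter transcript was the higher in each library, and the second quantification gave 55.4% and 31.1%. For Hsp90aa1 the quantifications differed, since its 2852-nt transcript held 28.7% ± 6.81 in the first quantification and 63.0% ± 5.95 in the second. The Hspa8 total was split between a 2394-nt coding transcript, at 58.4% ± 3.17, and a 2019-nt one, at 38.2% ± 2.06, while the second quantification gave 69.6% ± 17.0 and 17.1% ± 5.86.

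The members varied little among libraries. The median coefficient of variation of detected members was 8.10%, and that of detected nuclear protein-coding genes 10.1%. The highest library was at least 1.5 times the lowest in 1 member, Hspa1b at 1.85 times, which is 1.96% of members, beside 10.6% of detected nuclear protein-coding genes. Next came Dnajc12, a cochaperone of aromatic amino acid hydroxylases, with 1.65, 2.35 and 2.31 TPM. Its credibility intervals overlapped, at 1.12 to 2.27 TPM in replicate 1 and 2.01 to 2.68 TPM in replicate 2. The share of its 592-nt transcript was 53.0%, 75.3% and 75.4%, and the dispersion test of counts described next did not call the gene. Dnajc16, with 2.17, 1.56 and 2.04 TPM, and Dnajb14, with 5.83, 4.29 and 4.77 TPM, were lowest in replicate 2.

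Small differences still exceeded counting error at these depths. A Poisson dispersion test of expected counts (chi-square with 2 degrees of freedom, Benjamini-Hochberg over all genes tested, false discovery rate 0.05) called 41 of 61 members with enough counts, which is 67.2%, beside 62.1% of the 14037 genes tested. The share is near that of all genes and is no result about the members. The counts moved with those of all genes when a replicate was left out. The test called 25 members (40.3%) without replicate 1, beside 45.3% of all genes, and 24 (39.3%) without replicate 2, beside 37.9%. It called 33 (54.1%) without replicate 3, beside 49.5%, and 52 (85.2%) in the second quantification, beside 74.9%.

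The members on the ER list, which may be incomplete, shared a library pattern. All 8 were lowest in replicate 2 on deposited TPM, beside 63.0% of detected nuclear protein-coding genes. Of the 43 detected members outside the ER list, 17 were. Dnajc10, an ER reductase with a J domain, had 9.83, 7.89 and 9.01 TPM. Dnajc3, the BiP cochaperone that also inhibits the kinase PERK, had 10.1, 8.49 and 9.49 TPM. Dnajb9, a BiP cochaperone that restrains the sensor IRE1, had 7.72, 6.49 and 6.51 TPM, and Hspa13 had 6.03, 5.10 and 5.99 TPM, with Dnajb9 nearly as low in replicate 3.

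The pattern depended on the scale. When TPM was scaled to nuclear protein-coding genes in each library, 6 of 8 ER members were lowest in replicate 2, beside 40.2% of detected nuclear protein-coding genes and 8 of 43 members outside the ER list. On that scale the median log2 of replicate 2 over the mean of the others was −0.11 for ER members, 0.04 for members outside the list and −0.04 for all detected nuclear protein-coding genes. On counts scaled by trimmed-mean library sizes the ER count was 5 of 8 (24.6% of those genes), and in the second quantification on the protein-coding scale 4 of 8 (44.5%). Off the list, Dnajb14 and Dnajc16 were lowest in replicate 2 on deposited TPM and on the protein-coding scale. Dnajc14 and Dnajc18 were so on deposited TPM alone, and Dnajb12 and Dnajc25 on neither. In the second quantification the ER count was near the share of all detected genes. The contrast thus depends on the quantification as well as on the list as drawn. The list and this comparison were chosen with values known, so the counts are a description.

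Some other RNAs were also low in replicate 2. Mitochondrially encoded RNA held 1.80%, 0.376% and 1.41% of TPM in replicates 1, 2 and 3, and all 13 mitochondrial mRNAs were lowest in replicate 2. Malat1, a nuclear noncoding RNA, had 741, 178 and 812 TPM. Of 14 immediate early genes 9 were lowest in replicate 2 on each scale. That is near the 63.0% of detected nuclear protein-coding genes on deposited TPM and above their 40.2% on the protein-coding scale. Atf3, Egr1, Jun and Nr4a1 were lowest in replicate 3, and Fosb was highest in replicate 2. Among the other member lists, both detected membrane traffic members, Dnajc13 and Dnajc5, were lowest in replicate 2 on either scale, with a median log2 of −0.12 on the protein-coding one. Of 8 nuclear-encoded mitochondrial members 4 were lowest there on deposited TPM and 1 on the protein-coding scale, and of 11 detected heat-inducible members 2 and 0 were. Of 9 ER folding partners 7 were lowest in replicate 2 on deposited TPM and 4 on the protein-coding scale, near the shares of all detected genes. Whether the ER list differed from the other lists was not tested. The part of fraction purity, depth or RNA quality in the ER pattern was not tested.

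**Figure D4:**
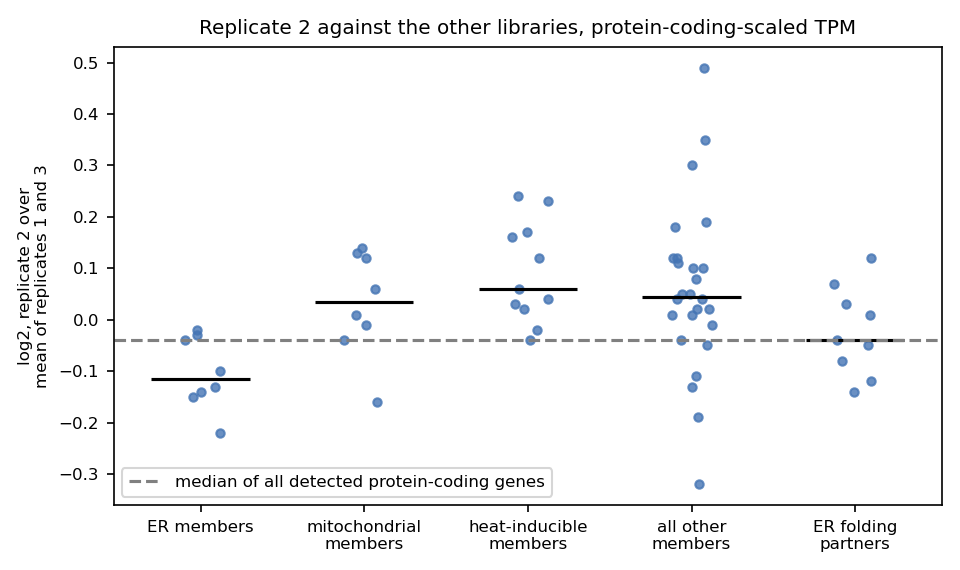
Log2 of replicate 2 over the mean of replicates 1 and 3, on TPM scaled to nuclear protein-coding genes, for detected members by list (Hspd1 and Hspe1 stand in both the mitochondrial and heat-inducible lists) and for ER folding partners; black lines are medians and the dashed line is the median of all detected nuclear protein-coding genes. The ER members lie between −0.22 and −0.02, with a median of −0.11, while the medians of the mitochondrial list, the heat-inducible list and the remaining members lie above 0; the remaining members include 2 of membrane traffic, whose own median was −0.12.

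Partner genes of the chaperone cycle were mostly detected as well. Of 5 genes listed as heat shock factors or their regulator, 3 were detected, namely Hsbp1, Hsf1 and Hsf2. The small regulator Hsbp1 was highest, at 40.3 ± 1.34 TPM, while Hsf1, the main stress factor, averaged 3.01 ± 0.261 TPM, Hsf2 2.54 ± 0.444 TPM, and Hsf5 was listed at 0 (SD, n = 3 each). Of 10 nucleotide exchange partners 8 were detected. Bag1 led with 34.4 ± 1.29 TPM, followed by Bag6 with 31.5 ± 2.17 TPM and the ER exchange factor Hyou1 with 14.8 ± 1.91 TPM, and Bag2 was lowest at 0.210 TPM. Of the members named for binding a heat shock protein, Hspbp1, an exchange factor of HSP70, averaged 5.57 ± 0.144 TPM, and Hspbap1, at 0.697 ± 0.0473 TPM, was not detected.

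Of 20 cochaperones of HSP90 and HSP70, 17 were detected. Ahsa1, the activator of HSP90 ATPase, had 50.2, 47.6 and 42.1 TPM and was the highest, ahead of Ptges3, known as p23, at 28.4 ± 2.91 TPM and the kinase-targeting Cdc37 at 28.2 ± 2.13 TPM (SD, n = 3 each). The muscle gene Unc45b was lowest, at 0.00333 TPM. Of 15 cytosolic chaperonin and prefoldin genes 14 passed detection, the list's median being 21 TPM. They were led by Pfdn5 at 49.4 ± 0.50, Cct2 at 27.7 ± 1.33 and Cct6a at 26.4 ± 3.12 TPM. The exception was the testis subunit Cct6b, at 0.0100 TPM.

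All 8 mitochondrial chaperones and proteases and all 9 ER folding partners were detected. The mitochondrial set had a median of 5.10 TPM and ranged from Trap1, the mitochondrial HSP90, at 7.30 ± 0.245 TPM, with Timm44 at 6.32 ± 0.50 and Lonp1 at 5.82 ± 0.335 TPM, down to Clpb at 2.04 ± 0.125 TPM. The ER set had a median of 39.0 TPM. It was led by the lectin chaperones Calr at 166 ± 11.7 TPM and Canx at 100 ± 8.01 TPM and the disulfide isomerase Pdia3 at 63.3 ± 4.05 TPM, and Creld2 was lowest at 4.69 ± 0.295 TPM (SD, n = 3 each). On gene TPM Hspa5, at 213 ± 22.7, thus stood above each of these ER partners. Its coding transcripts alone averaged 177 ± 19.9 TPM, close to the gene TPM of Calr, and coding transcripts of the partners were not separated.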

How the data were processed

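The authors deposited, per the file headers, gene and transcript tables in the layout of RSEM with expected counts (model estimates that need not be whole), TPM, FPKM and, as signal values, the bounds of credibility intervals of TPM, and a transcript table in the layout of kallisto with estimated counts and TPM. The build, mm10, and annotation, GENCODE M21, are named in text deposited beside the tables. For the aligner, tool versions and strand setting, the entry is: not given in the sources used here. Gene names and types came from GENCODE M21, which matched all 55536 identifiers, and promoter sequences from RefSeq on GRCm38.p6.

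TPM was used as deposited, with 1 TPM in every library as detection. Expected counts were rounded for a Poisson dispersion test on trimmed-mean library sizes, for genes with a mean of at least 10 counts. It used edgeR 4.0.16 in R 4.3.3 and was tested on simulated data. A quasi-likelihood test needs 2 groups and there is 1. The other steps used Python 3.11.15, numpy 2.4.6, pandas 2.3.3, biopython 1.88 and matplotlib 3.10.9. For the protein-coding scale, TPM of nuclear protein-coding genes was set to sum to 1000000 in each library. Coding sequences were aligned globally.

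Given in full were the 3 highest members of each family, the heat-inducible list and the 6 members with the largest ratio of highest to lowest library, and of partner lists the 3 highest and the lowest; others were named after their values were seen. Members and lists were chosen with earlier results of these data known. Alternatives were the second quantification, other thresholds, scales, pseudocounts and size factors, and each replicate left out.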

Additional observations from a re-analysis of the deposited data

How the results depend on the processing

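The number of detected members, 51, was 39 in the second quantification and between 47 and 55 under the other thresholds and scales. The median member level, 3.36 TPM, was 1.32 in the second quantification, 15.2 on the protein-coding scale and 3.34 to 3.46 with each replicate left out. The share of the 5 highest members was 61.8% in the second quantification. The Hsp-named less Dnaj-named median was −0.09 in the second quantification and turned to 0.34 with means and to 1.72 with members at a mean of at least 1 TPM. Members varying beyond counting error numbered 24 to 33 with each replicate left out, as 37.9% to 49.5% of all genes did, and 52 in the second quantification, as 74.9% of all genes did. ER members lowest in replicate 2 numbered 5 on counts scaled by trimmed-mean library sizes and 4 in the second quantification, a result and alternatives added after seeing the data. The cause of these changes was not tested. The 3 ratios between named genes kept their direction under every alternative run. On the protein-coding scale, the second quantification put all 51 detected members within 1.5-fold of the first, the largest change being 1.36-fold in Dnajc1. No paired analysis was possible because the labels give 1 group. Depth limits the 11 members with at most 3 counts in every library, 6 of them with none.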

Other observations

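Outside the protein-coding rule, 15 rows carry names of these families, all of them processed pseudogenes. Of these 10 had no counts in any library and none was detected. By counts the highest was Hspd1-ps3, a processed pseudogene of Hspd1, with 7.17, 37.8 and 22.1 expected counts in replicates 1, 2 and 3. Among genes with a J domain that are named otherwise, Gak averaged 20.1 ± 1.26 TPM, Sec63, which works at the ER translocon, 9.66 ± 0.654 TPM, and Hscb, the mitochondrial iron-sulfur cochaperone, 5.74 ± 1.06 TPM (SD, n = 3 each).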
